A study of Mus musculus with 6 samples.

Results

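Forkhead transcription factors were followed in the esophageal epithelium of E12.5 mouse embryos. The set was every gene of the count table whose symbol is Fox, a letter from a to s and a number, without Foxa1, Foxa2, Foxa3, Foxe1 and Foxj1, which gave 38 of the 23284 genes in the table. RNA was sequenced from 3 p63KO samples, which carried the Trp63-CreERT2 allele in homozygous form, and from 3 littermate controls, titled wild type, whose own Trp63 alleles are not named further. The labels state neither how the allele was made nor whether each sample came from its own embryo or from pooled ones, so p-values cover the spread between libraries and that spread may be technical. In the gut tube p63, the product of Trp63, is known as the factor of the basal cells of stratified epithelia, and the comparison asks which forkhead RNAs differ where it is lost.

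Forkhead factors share a winged-helix DNA-binding domain that reads sequences close to TGTTTAC, and their letter names the subfamily. Some are made in many tissues, such as the FoxK proteins, several of the FoxO and FoxP proteins and, in dividing cells, FoxM1. Others mark single lineages, among them FoxF and FoxL1 in gut mesenchyme, FoxI1 in ionocytes and FoxD3 in neural crest. In the foregut, FoxA proteins set endodermal identity, and FoxP proteins act as repressors in the developing airway and esophagus.

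The p63KO libraries held 13335328 to 16506401 counts and the control libraries 16948971 to 20093838. Levels are given as CPM, which are counts divided by library size and scaled with the TMM factors of edgeR, and genes were called changed at an adjusted p under 0.05 in the edgeR quasi-likelihood test over 13849 tested genes. Trp63 measured 76.7, 62.2 and 75.4 CPM in p63KO, against 583.9, 674.1 and 550.6 CPM in controls, so every library matched its label. Epcam and Cdh1, which define epithelium, averaged 947.3 ± 5.13 and 683.9 ± 23.0 CPM in p63KO and 851.2 ± 6.61 and 904.8 ± 28.3 CPM in controls (SD, n = 3 each). The epithelial marker list had 5 members higher and 5 lower of 19 tested (15.3% and 14.3% over all tested genes). With p63KO replicate 1 left out, 3 of the list were higher. Control replicate 3 stood apart through 58 genes far above their level in any other library, and no forkhead member was among them.

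Of the 38 members, 33 had a count in some library and 25 had enough counts to be tested. Foxc1, Foxd1, Foxd2 and Foxi1 rose in p63KO, Foxf2, Foxk1, Foxn3 and Foxq1 fell, and 17 tested members did not pass. The 8 called members are 32% of those tested, against 29.6% of all tested genes called in either direction. Split by direction, 16% of the tested members were higher and 16% lower, beside 15.3% and 14.3% of all tested genes. The share called was therefore near that of the transcriptome as a whole. All 4 rises were at least 2-fold, a size of rise reached by 6.7% of all tested genes. Foxf2 was the 1 fall of at least 2-fold, reached by 4.94% of all tested genes. The other 3 falls were each less than 1.5-fold. Foxi1 and Foxd2 were over the filter on low counts in 3 p63KO libraries each, but in 0 and 1 control libraries. They entered the test mainly through their p63KO level, so the count and size of rises depend on the filter. Groups did not overlap for 12 of the 25 members, 48% beside 44.1% of all tested genes. In 5 of them p63KO lay above control (21.8% of all tested genes did) and in 7 below (22.2% did). Foxi1 and Foxd2 are among the 5, as is Foxb1, which was over the filter in 3 p63KO libraries and 1 control library.

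**Figure D1:**
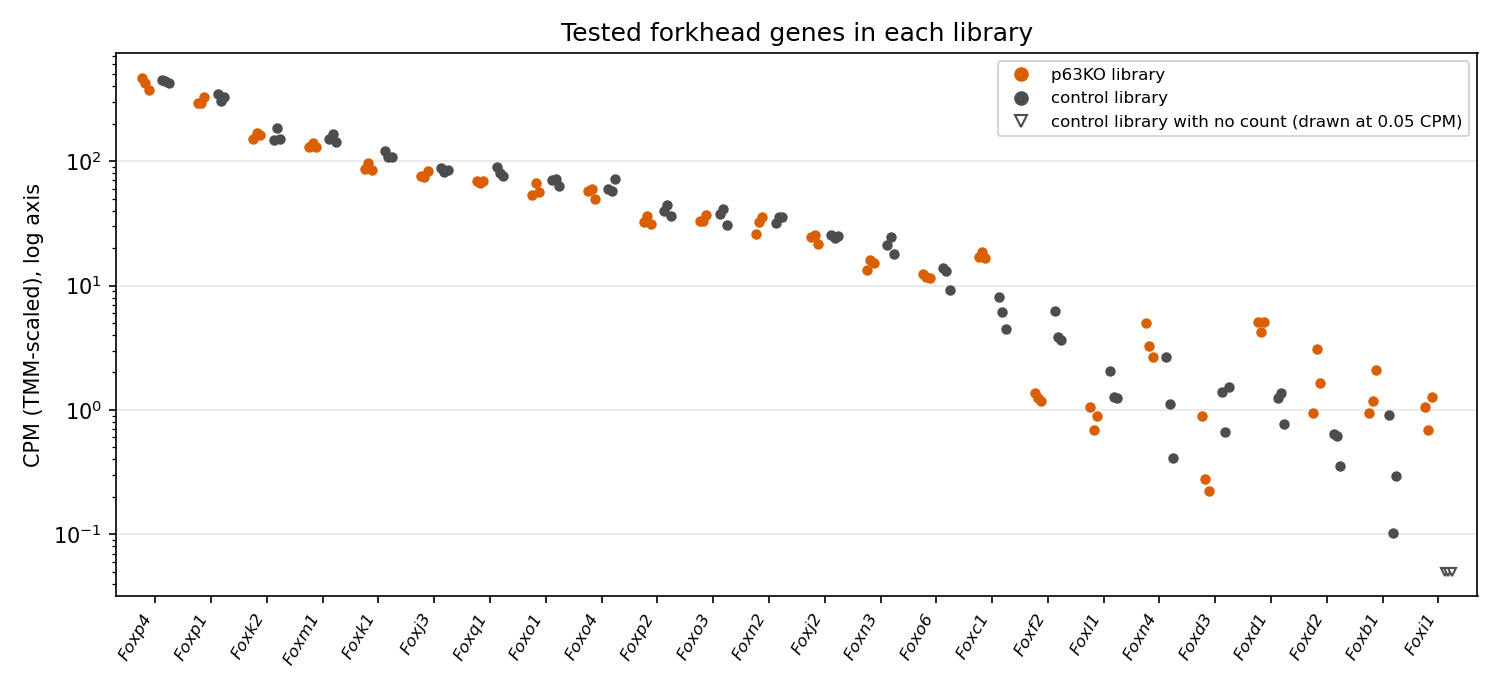
Level of 24 of the 25 tested forkhead genes in each library, in TMM-scaled CPM on a log axis, with p63KO libraries in orange at the left of each pair and control libraries in grey at the right. Genes are ordered by their control level, and the widely expressed genes at the left differ little between the groups, while the genes below about 10 CPM at the right hold the larger differences.

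The median log2 fold change (p63KO over control) over the 25 tested members was -0.13, beside -0.01 over all tested genes, and 19 of the 25 had a negative value, of which Foxk2 and Foxo6 turned positive with upper quartile and total count scaling. Members' summed level was 1566, 1585 and 1529 CPM in p63KO, against 1720, 1695 and 1616 CPM in controls. These sums are carried by few genes. Per kilobase of the longest coding transcript, Foxp4 alone held 34.0% of the members' summed level in p63KO and 32.7% in controls.

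FoxP factors are zinc-finger and leucine-zipper repressors that bind DNA as dimers, and Foxp4 and Foxp1 were the most abundant members per kilobase. Foxp4 measured 469, 427 and 377 CPM in p63KO and 447, 440 and 422 CPM in controls. Foxp1 measured 296, 295 and 329 CPM in p63KO and 348, 304 and 328 CPM in controls. The groups overlapped for both genes, and neither passed (Foxp4 log2 fold change -0.04, 95% interval -0.22 to 0.15, edgeR adjusted p = 0.77; Foxp1 -0.09, 95% interval -0.26 to 0.07, adjusted p = 0.39). Foxp2, known for its role in vocal learning circuits and in the lung, measured 32.6, 36.6 and 31.5 CPM in p63KO, against 40.1, 44.2 and 36.2 CPM in controls. The highest p63KO library lay just above the lowest control library, and Foxp2 did not pass (log2 fold change -0.26, SE 0.10, edgeR adjusted p = 0.085). It did pass when control replicate 3 was left out (adjusted p = 0.041).

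Per kilobase, the order of the members was led by Foxp4 at 106.1 ± 11.6 CPM per kb in p63KO and 109.1 ± 3.26 in controls, followed by Foxp1 at 42.7 ± 2.67 in p63KO and 45.5 ± 3.08 in controls (SD, n = 3 each). Foxm1 and Foxk2 came next. The Foxk2 libraries lay just above the Foxm1 libraries in p63KO, and the libraries of both genes overlapped in controls. Foxm1 stood at 28.7 ± 1.24 CPM per kb in p63KO and 32.8 ± 2.41 in controls, and Foxk2 at 31.9 ± 1.56 in p63KO and 32.1 ± 4.25 in controls. Foxo4, Foxj3, Foxq1 and Foxk1 followed in both groups, between 11.98 and 17.6 CPM per kb in p63KO and between 15.1 and 20.02 in controls.

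Of the FoxK factors, repressors of autophagy genes and regulators of glycolysis, Foxk1 passed and Foxk2 did not. Foxk1 measured 86.2, 96.5 and 84.6 CPM in p63KO, against 120.8, 107.8 and 107.8 CPM in controls. All p63KO libraries lay below all control libraries, and Foxk1 fell by 0.33 on the log2 scale (SE 0.08, edgeR adjusted p = 0.010). Foxk2 measured 152, 167 and 163 CPM in p63KO, against 148, 186 and 150 CPM in controls. Its groups overlapped and it did not pass (log2 fold change -0.01, 95% interval -0.22 to 0.20, adjusted p = 0.97). The ratio of Foxk1 to Foxk2 counts within a library was 0.568, 0.578 and 0.519 in p63KO, against 0.816, 0.580 and 0.719 in controls. The nearest libraries of the groups differed by little, and an exact two-sided permutation test gave an unadjusted p = 0.1, the smallest that 3 against 3 libraries can give. Ratios were computed for 4 pairs of members, so no difference between relatives could pass.

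A further list held genes of the proteins that FoxP and FoxK factors work with, such as the NuRD and Sin3 corepressors. Of 18 tested, 1 was higher, 2 were lower and 15 did not pass, beside 29.6% of all tested genes called. Their median log2 fold change was -0.05. Mta2, a NuRD subunit, averaged 236.3 ± 8.07 CPM in p63KO and 344.3 ± 5.97 CPM in controls (log2 fold change -0.54, SE 0.06, edgeR adjusted p = 8.4e-05). Sap30, a Sin3 subunit, rose (0.37, adjusted p = 0.045), but did not pass without p63KO replicate 1 or 3 or control replicate 1 or 3. Chd4, the NuRD remodeller and most abundant of these genes (here and below, the highest mean CPM of a list, not set per length), averaged 848.1 ± 41.8 CPM in p63KO and 802.6 ± 29.8 CPM in controls and did not pass (0.08, adjusted p = 0.40).

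Foxj2 and Foxj3 are widely made activators, and neither passed. Foxj2 measured 24.5, 25.7 and 21.7 CPM in p63KO, against 25.5, 24.2 and 25.1 CPM in controls (log2 fold change -0.06, SE 0.10). Foxj3 measured 75.8, 74.1 and 83.3 CPM in p63KO, against 88.4, 81.3 and 85.03 CPM in controls (-0.13, SE 0.07, edgeR adjusted p = 0.21). The groups overlapped for both. Foxn2 measured 26.2, 32.5 and 35.9 CPM in p63KO, against 32.1, 35.8 and 35.4 CPM in controls, with overlapping groups, and did not pass either (-0.13, SE 0.12).

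Foxn3, a repressor first described as a cell cycle checkpoint factor, measured 13.2, 15.9 and 15.1 CPM in p63KO, against 21.3, 24.6 and 18.1 CPM in controls. Its groups did not overlap, and Foxn3 fell by 0.53 on the log2 scale (SE 0.14, edgeR adjusted p = 0.019). Foxq1, the gene of the satin coat mutation in mice, measured 69.8, 67.0 and 69.1 CPM in p63KO, against 89.0, 80.6 and 75.8 CPM in controls. Here too every p63KO library lay below every control library, and Foxq1 fell by 0.25 (SE 0.07, adjusted p = 0.028). Both calls were lost when single libraries were left out. Foxn3 did not pass without p63KO replicate 1 or 3 or control replicate 1 or 2 (adjusted p of 0.074, 0.055, 0.051 and 0.067, in that order). Foxq1 did not pass without p63KO replicate 1, 2 or 3 (0.058, 0.10 and 0.073) or control replicate 1 or 2 (0.10 and 0.055). Exons of Foxq1 overlap those of A530084C06Rik over 3200 bases on the opposite strand in GENCODE. Without a stated strand setting, reads from those bases cannot be told apart.

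**Figure D2:**
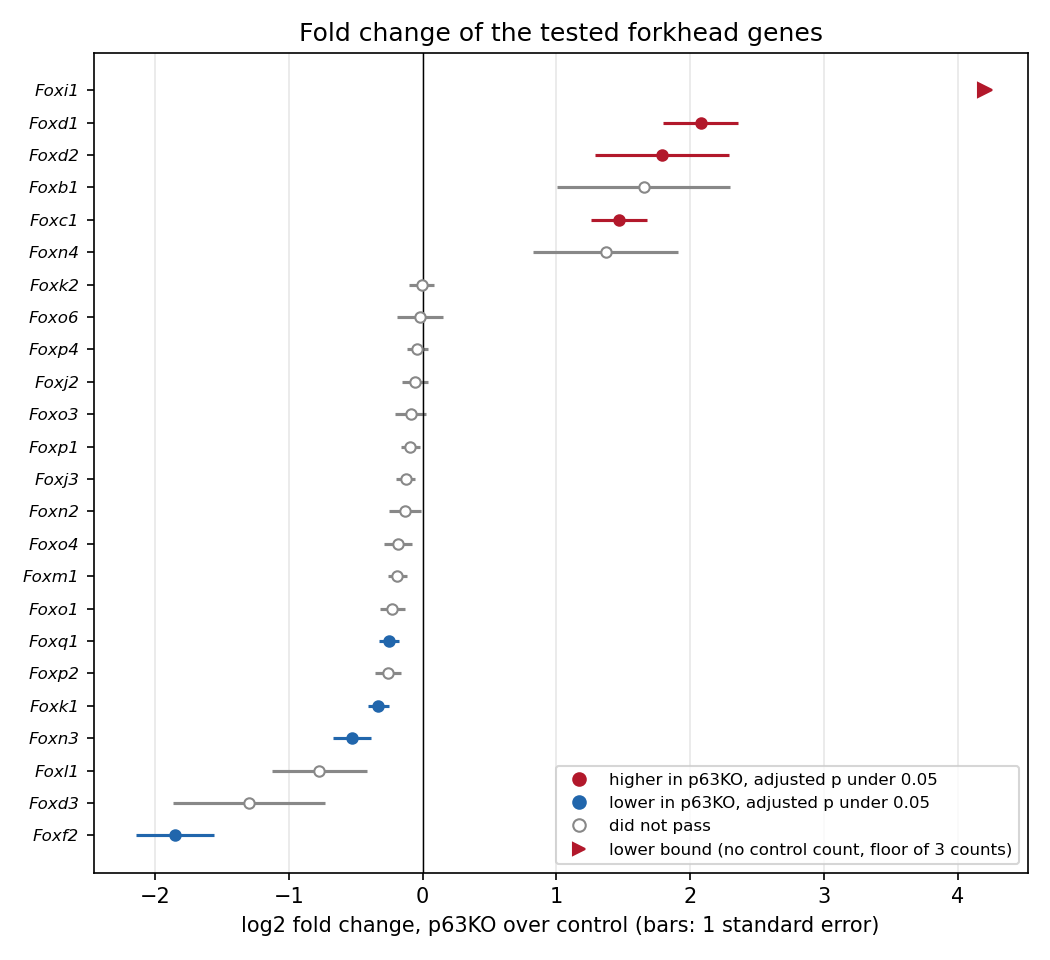
Log2 fold change of 24 of the 25 tested forkhead genes, p63KO over control, with bars of 1 standard error; filled red and blue points passed the edgeR test and open points did not. The arrow for Foxi1 is a lower bound at 4.21, since no control library had a count, and the open points between Foxk2 and Foxo1 sit close to 0.

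FoxO factors are held in the cytoplasm when AKT and SGK kinases phosphorylate them downstream of insulin and IGF receptors, and otherwise switch on genes of cell cycle arrest, stress resistance and metabolism. No FoxO gene passed. Foxo1 measured 53.5, 66.3 and 56.7 CPM in p63KO, against 70.8, 72.4 and 63.5 CPM in controls (log2 fold change -0.23, SE 0.09, edgeR adjusted p = 0.10). Foxo3 measured 33.2, 32.8 and 37.2 CPM in p63KO, against 37.8, 41.3 and 30.6 CPM in controls (-0.09, adjusted p = 0.62). The groups overlapped for both, and without p63KO replicate 2 Foxo1 passed (adjusted p = 0.033). Foxo4 measured 57.4, 59.8 and 49.8 CPM in p63KO, against 59.7, 58.1 and 72.1 CPM in controls (-0.18, adjusted p = 0.22). Foxo6, best known from the brain, measured 12.3, 11.6 and 11.5 CPM in p63KO, against 13.7, 12.97 and 9.13 CPM in controls (-0.02, adjusted p = 0.95). Both had overlapping groups. The ratio of Foxo1 to Foxo3 counts was 1.61, 2.03 and 1.52 in p63KO and 1.87, 1.75 and 2.07 in controls, with no separation of the groups (exact two-sided permutation p = 0.3).

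Of 26 tested genes for kinases, receptors and other proteins that act on FoxO proteins, 6 rose, 2 fell and 18 did not pass, near the 29.6% called over all tested genes, with a median log2 fold change of -0.00. Irs1, the insulin receptor substrate, measured 277, 314 and 358 CPM in p63KO, against 145, 190 and 130 CPM in controls (log2 fold change 1.03, SE 0.14, edgeR adjusted p = 0.00053). Akt1, the most abundant kinase of the list, averaged 526.9 ± 14.1 CPM in p63KO and 405.2 ± 26.9 CPM in controls (0.38, adjusted p = 0.0022). In the other direction, Sgk3 averaged 8.95 ± 0.140 CPM in p63KO and 24.5 ± 3.21 CPM in controls (-1.45), and Sfn, which encodes the phosphoserine-binding 14-3-3 sigma protein of epithelia, averaged 13.9 ± 0.786 CPM in p63KO and 323.3 ± 36.0 CPM in controls (-4.54).

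Genes reported as FoxO targets moved both ways: 8 of 32 tested rose, 7 fell and 17 did not pass, with a median of 0.02. Over all tested genes 15.3% rose and 14.3% fell. Trib1, a pseudokinase gene, rose with the lowest p (log2 fold change 1.05, edgeR adjusted p = 6.1e-05), and Ccnd1, a cyclin gene that FoxO proteins are known to repress, rose by 1.06. Sesn1, a stress-induced inhibitor of mTORC1, averaged 25.5 ± 0.805 CPM in p63KO and 82.6 ± 10.8 CPM in controls (-1.70, adjusted p = 3.2e-06). Ccnd2, another repressed cyclin gene and the most abundant of the list, fell to 965 ± 85.9 CPM in p63KO, against 1881 ± 158 CPM in controls (-0.96). So the pair of cyclin genes repressed by FoxO proteins changed in opposite directions.

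FoxM1 drives the genes of G2 and mitosis in dividing cells. Foxm1 measured 130, 140 and 131 CPM in p63KO, against 151, 165 and 142 CPM in controls. Its groups did not overlap, yet it did not pass (log2 fold change -0.19, SE 0.07, edgeR adjusted p = 0.073), and it did without control replicate 3 (adjusted p = 0.041). Of 35 FoxM1 partners and reported targets, 2 rose, 4 fell and 29 did not pass, while 29.6% of all tested genes were called. The list median was -0.04, and each called change in the list was smaller than 1.5-fold. Cdc25b, the phosphatase of mitotic entry, averaged 96.8 ± 3.19 CPM in p63KO and 79.9 ± 1.55 CPM in controls (0.28). Cdc20, the activator of the anaphase-promoting complex, averaged 124.6 ± 3.83 CPM in p63KO and 152.7 ± 5.84 CPM in controls (-0.29). Top2a, the mitotic topoisomerase and most abundant of these genes, averaged 945 ± 75.8 CPM in p63KO and 936 ± 56.0 CPM in controls (0.01, adjusted p = 0.92). With a library left out the count of rises fell to 1 (without p63KO replicate 1, 2 or 3 or without control replicate 1), and that of falls to 2 (without p63KO replicate 1 or 3 or control replicate 2).

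Members known from mesenchyme and stroma were called in both directions. Foxf2, a Hedgehog-responsive factor of gut and palate mesenchyme, measured 1.36, 1.25 and 1.19 CPM in p63KO, against 6.23, 3.88 and 3.65 CPM in controls. Every p63KO library lay below every control library, and Foxf2 fell by 1.85 on the log2 scale (SE 0.29, edgeR adjusted p = 0.0012). Foxc1, a factor of periocular, cranial and somitic mesenchyme, measured 16.8, 18.7 and 16.6 CPM in p63KO, against 8.16, 6.13 and 4.48 CPM in controls. It rose 2.77-fold with no overlap (log2 fold change 1.47, SE 0.21, adjusted p = 0.00062).

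Foxf2 and Foxc1 are next to each other among the coding genes of chromosome 13, with Foxq1 before Foxf2, so their windows around the start are shown. They are taken from RefSeq on build GRCm38.p6, run from 250 bases before the start to 50 after it on the plus strand, and lie at chr13:31625566-31625865 for Foxf2 and chr13:31806396-31806695 for Foxc1. Capitals mark each match to the loose core that the p53 family reads, a pair of CNNG half-sites with 6 bases of any kind between them, which is its own reverse complement.
Foxf2: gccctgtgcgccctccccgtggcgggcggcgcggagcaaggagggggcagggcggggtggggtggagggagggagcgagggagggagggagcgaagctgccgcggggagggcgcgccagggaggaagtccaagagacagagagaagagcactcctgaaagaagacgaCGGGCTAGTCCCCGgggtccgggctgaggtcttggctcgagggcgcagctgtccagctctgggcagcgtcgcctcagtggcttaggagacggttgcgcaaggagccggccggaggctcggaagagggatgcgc
Foxc1: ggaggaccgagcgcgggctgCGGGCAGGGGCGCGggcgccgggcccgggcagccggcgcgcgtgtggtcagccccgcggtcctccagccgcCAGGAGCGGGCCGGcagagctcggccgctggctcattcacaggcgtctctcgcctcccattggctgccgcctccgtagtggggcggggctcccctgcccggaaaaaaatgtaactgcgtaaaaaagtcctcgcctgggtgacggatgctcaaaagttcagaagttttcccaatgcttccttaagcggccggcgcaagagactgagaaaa
The core stands at -83 to -70 from the start in Foxf2 and at -230 to -217 and -159 to -146 in Foxc1. It is a common string, found in 70.2% of 32851 mouse promoters of this length and in 22 of the 25 members with a promoter in the table. The stricter form, with CATG as both half-sites, was in none of those 25 members and in 0.712% of all promoters. Foxf2 also holds CAGCTG, an E-box read by neurogenic and myogenic basic helix-loop-helix factors, at -38 to -33. That string occurs somewhere in the window of 16.3% of all promoters. Both windows are rich in G and C (71.3% and 67.3%, beside a median of 52.7%). Promoters of Foxk1 and Foxq1 were not analysed here.

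On chromosome 13 the adjoining genes thus moved apart: Foxq1 and Foxf2 were lower and Foxc1 higher in p63KO. The ratio of Foxc1 to Foxf2 counts within a library was 12.4, 15 and 13.9 in p63KO, against 1.31, 1.58 and 1.23 in controls. An exact two-sided permutation test gave an unadjusted p = 0.1, the smallest that 3 against 3 libraries can give. This ratio restates the opposite calls of its genes and is no separate result. On chromosome 8, where Foxf1, Foxc2 and Foxl1 lie close together with Mthfsd between the first pair, no member passed. Foxl1, a Hedgehog target of gut mesenchyme, measured 1.06, 0.693 and 0.891 CPM in p63KO, against 2.04, 1.28 and 1.24 CPM in controls, without overlap (log2 fold change -0.77, SE 0.36, edgeR adjusted p = 0.14). Foxc2, known for lymphatic valves, had 5, 7 and 4 counts in p63KO and 4, 18 and 8 counts in controls, too few to test. Foxf1, listed as Foxf1a and so outside the set, measured 1.65, 2.91 and 0.965 CPM in p63KO, against 5.69, 3.52 and 3.53 CPM in controls (-1.20, SE 0.39, adjusted p = 0.045), a call that ended without p63KO replicate 1 or 3 or control replicate 1 or 2.

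**Figure D3:**
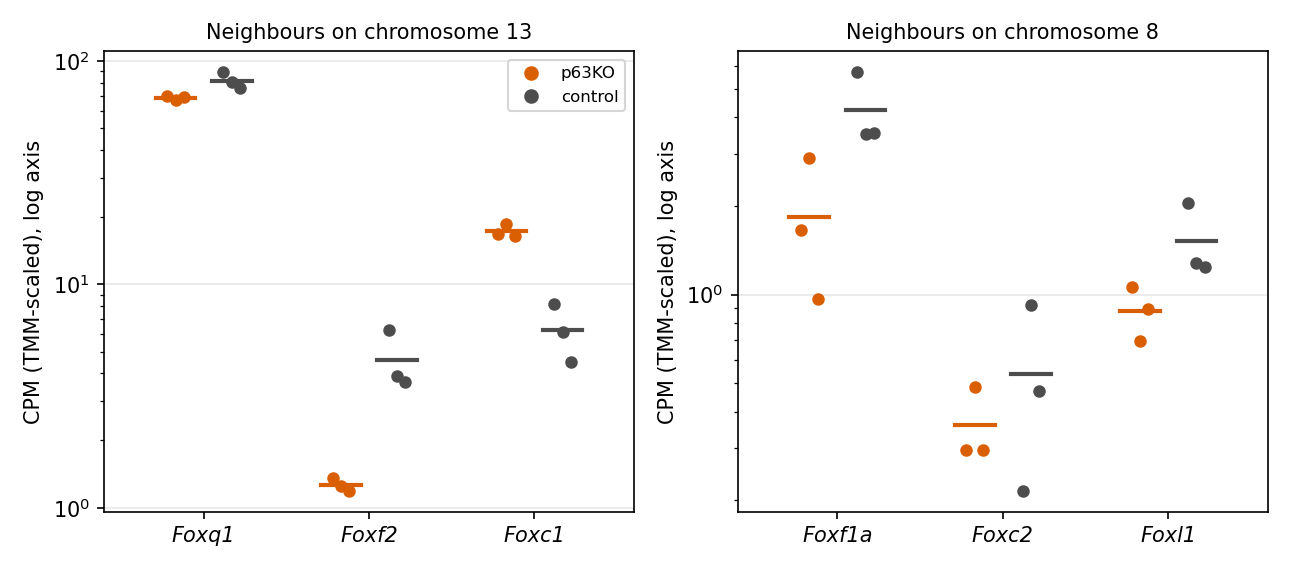
Levels of neighbouring forkhead genes on chromosome 13 and chromosome 8, in TMM-scaled CPM on log axes; points are libraries, p63KO in orange left of control in grey, and bars are group means. On chromosome 13 Foxc1 is higher in p63KO while Foxf2 and Foxq1 are lower; on chromosome 8 Foxc2 overlaps between the groups.

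Foxd1, which marks the stroma of the kidney and the temporal retina, measured 5.08, 4.22 and 5.12 CPM in p63KO, against 1.24, 1.38 and 0.765 CPM in controls. The groups were well apart, and Foxd1 rose 4.23-fold (log2 fold change 2.08, SE 0.28, edgeR adjusted p = 0.00049). Foxd2, a relative made in paraxial mesoderm and kidney mesenchyme, measured 0.944, 3.12 and 1.63 CPM in p63KO, against 0.644, 0.613 and 0.353 CPM in controls. It rose 3.45-fold without overlap (1.79, SE 0.50, adjusted p = 0.025), but its p63KO libraries were spread widely. Like Foxi1, Foxb1 and Foxn4, Foxd2 reached the filter on low counts in 3 libraries of p63KO and in fewer of the controls. The call of Foxd2 ended without p63KO replicate 2 (adjusted p = 0.099) or 3 (0.053) and without control replicate 1 (0.054), 2 (0.052) or 3 (0.062).

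Mesenchymal markers were present in both groups, as measured over a list of 30 genes, none of which was at 0 in all libraries. Of 28 tested, 8 rose, 8 fell and 12 did not pass, beside 15.3% of all tested genes higher and 14.3% lower. The median log2 fold change of these markers was -0.66. Their summed level was 2398 to 2864 CPM in p63KO and 1114 to 1308 CPM in controls. Dcn, the proteoglycan decorin, was the most abundant member at 1342, 1053 and 1272 CPM in p63KO, against 152, 211 and 114 CPM in controls. That gene made up a large part of the p63KO sum, so the sum says little about the other markers. Tbx18, a mesenchymal T-box factor, rose by 3.26, while the fibroblast genes Col1a1, Col3a1 and Pdgfra fell by 1.08, 1.11 and 1.05, and Osr2, a zinc finger factor of mesenchyme, fell by 6.11. Col1a1 and Col3a1 did not pass without p63KO replicate 2 or 3 or control replicate 1 or 3, nor Pdgfra without control replicate 1. The count of falls was 4 without control replicate 1 and 5 without p63KO replicate 3. Endothelial markers summed to 55.3 to 62.7 CPM in p63KO and 18.6 to 26.4 CPM in controls. Of 8 tested, 2 rose (Prox1 and Flt4), and 1 did without control replicate 3 or without p63KO replicate 1, 2 or 3. Cartilage markers summed to 738 to 864 CPM in p63KO and 1355 to 1799 CPM in controls, and muscle markers to 20.5 to 30.7 CPM in p63KO and 32.5 to 75.7 CPM in controls. In bulk samples fewer cells of a type and less RNA per cell cannot be told apart, and the part of admixed mesenchyme in the values of Foxc1, Foxd1, Foxd2 and Foxf2 was not tested.

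Foxi1 had counts in p63KO and none in controls. The factor switches on genes of ionocytes, the acid and ion transporting cells of the inner ear, the kidney collecting duct and the airway. It had 18, 10 and 17 counts in p63KO, which are 1.06, 0.693 and 1.26 CPM, against 0, 0 and 0 counts in controls. With controls set to a floor of 3 counts over the group, Foxi1 was at least 18.5-fold higher (edgeR adjusted p = 0.0015). Foxi1 was over the filter on low counts (0.598 CPM in 3 libraries) in p63KO only, so the test could take it up only because it was higher there. Under a filter of 1 CPM in 3 libraries it was not tested.

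As the member with counts in p63KO alone, Foxi1 is shown with its window around the start, from RefSeq on build GRCm38.p6 at chr11:34208040-34208339, read on the minus strand, with matches to the same p53 family core in capitals.
Foxi1: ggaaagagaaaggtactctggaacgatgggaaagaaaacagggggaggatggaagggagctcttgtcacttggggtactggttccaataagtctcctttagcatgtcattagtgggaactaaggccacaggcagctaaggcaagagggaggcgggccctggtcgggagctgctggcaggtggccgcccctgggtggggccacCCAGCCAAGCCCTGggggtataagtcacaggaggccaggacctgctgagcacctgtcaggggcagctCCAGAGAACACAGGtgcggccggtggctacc
The core occurs at -48 to -35 and at 20 to 33 from the start, and 60.3% of the bases are G or C. Neither TGTTTAC nor the stricter CATG form is in this window.

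Genes that work beside Foxi1 in ionocytes moved both ways. Of 18 in the table, 9 were tested, of which 5 rose, 3 fell and 1 did not pass, beside 15.3% of all tested genes higher and 14.3% lower. The median log2 fold change of the 9 ionocyte genes was 0.70. Slc12a2, the sodium, potassium and chloride cotransporter gene and the most abundant of them, averaged 364 ± 41.5 CPM in p63KO and 201 ± 12.7 CPM in controls (log2 fold change 0.86, SE 0.09, edgeR adjusted p = 9.6e-05). Cftr, the chloride channel gene, rose by 0.70, with 134, 113 and 134 CPM in p63KO, against 85.1, 56.2 and 93.0 CPM in controls. Hepacam2 and Stap1 rose by 2.15 and 2.70. Tfcp2l1, an ionocyte and intercalated cell factor, rose by 2.04, but did not pass without p63KO replicate 1 or 3 or control replicate 1. Dmrt2 averaged 4.39 ± 1.497 CPM in p63KO and 59.3 ± 10.9 CPM in controls (-3.77), and the ammonium transporter gene Rhbg fell as well. The proton pump gene Atp6v1c2 fell too (-1.80), a call that ended without p63KO replicate 2 or 3 or control replicate 1. Ascl3, a defining ionocyte factor, and Slc26a4 had no count in any library. Summed, the list reached 509 to 644 CPM in p63KO and 365 to 389 CPM in controls. Slc12a2 and Cftr made up most of that sum in both groups, so it says little about the other genes of the list. Markers of other cell types moved as well, and their part in the level of Foxi1 was not tested.

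Members known from neurons and neural crest were low in both groups, and none of those given here passed. Foxn4, a factor of spinal cord and retinal progenitors, measured 5.02, 3.26 and 2.67 CPM in p63KO, against 2.69, 1.12 and 0.412 CPM in controls. The highest control library lay just above the lowest p63KO library (log2 fold change 1.37, SE 0.54, edgeR adjusted p = 0.091). Foxn4 passed without control replicate 1 (adjusted p = 0.012), with DESeq2 (0.037) and with limma-voom (0.043). Foxb1, known from the mammillary region and midbrain, measured 0.944, 1.18 and 2.08 CPM in p63KO, against 0.913, 0.102 and 0.294 CPM in controls (1.65, SE 0.65, adjusted p = 0.088). Its groups were barely apart, and it passed without control replicate 1 (0.017) and with limma-voom (0.049). B230323A14Rik, an antisense gene, shares 418 exon bases with Foxb1, and reads from those bases cannot be told apart. Exons of other members overlap those of other genes too, such as Foxo1 with the antisense gene Gm20402 over 589 bases.

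Foxd3, which specifies neural crest, measured 0.885, 0.277 and 0.223 CPM in p63KO, against 1.40, 0.664 and 1.53 CPM in controls. Its groups overlapped (log2 fold change -1.30, SE 0.57, edgeR adjusted p = 0.12), and it passed without p63KO replicate 1 (adjusted p = 0.035). Foxd3 reached the filter on low counts in 3 control libraries and in fewer of p63KO.

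A neural list set around Foxn4 held 20 genes, of which 11 had too few counts to test, 4 of them with no count in any library. Of the 9 tested, 8 were higher (15.3% of all tested genes were), none was lower and 1 did not pass, with a median log2 fold change of 4.68. Dll4, the Notch ligand gene that Foxn4 is known to switch on in the mouse, measured 26.2, 25.3 and 21.6 CPM in p63KO, against 1.13, 0.664 and 1.06 CPM in controls (4.68, edgeR adjusted p = 5.7e-07). Insm1, which encodes a transcription factor of endocrine cells and neurons, had the lowest p of the list (7.65). Sox2, the most abundant gene of the list, averaged 581.8 ± 29.9 CPM in p63KO and 643.6 ± 92.8 CPM in controls and did not pass (-0.15, adjusted p = 0.33). Leaving out control replicate 3 gave 8 rises and 1 fall, that of Sox2.

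Neural crest genes split: 6 of 20 tested rose, 6 fell and 8 did not pass, with a median log2 fold change of -0.57. Among all tested genes 15.3% rose and 14.3% fell. Elavl3, a neuronal RNA-binding protein gene, rose by 5.85 and the receptor gene Ret by 4.84, whereas Th, the tyrosine hydroxylase gene, fell by 6.83. Sox10, which defines migrating crest, did not pass in the main fit, but was called lower with DESeq2 and without control replicate 2. It was low in every library, at 1.53, 1.801 and 0.446 CPM in p63KO, against 2.69, 1.79 and 5.30 CPM in controls (edgeR adjusted p = 0.088). Erbb3, the neuregulin receptor gene and the most abundant of the list, was at 131 to 164 CPM in p63KO and 139 to 145 CPM in controls (0.03, adjusted p = 0.84). Summed, the list reached 636 to 717 CPM in p63KO and 483 to 523 CPM in controls.

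**Figure D4:**
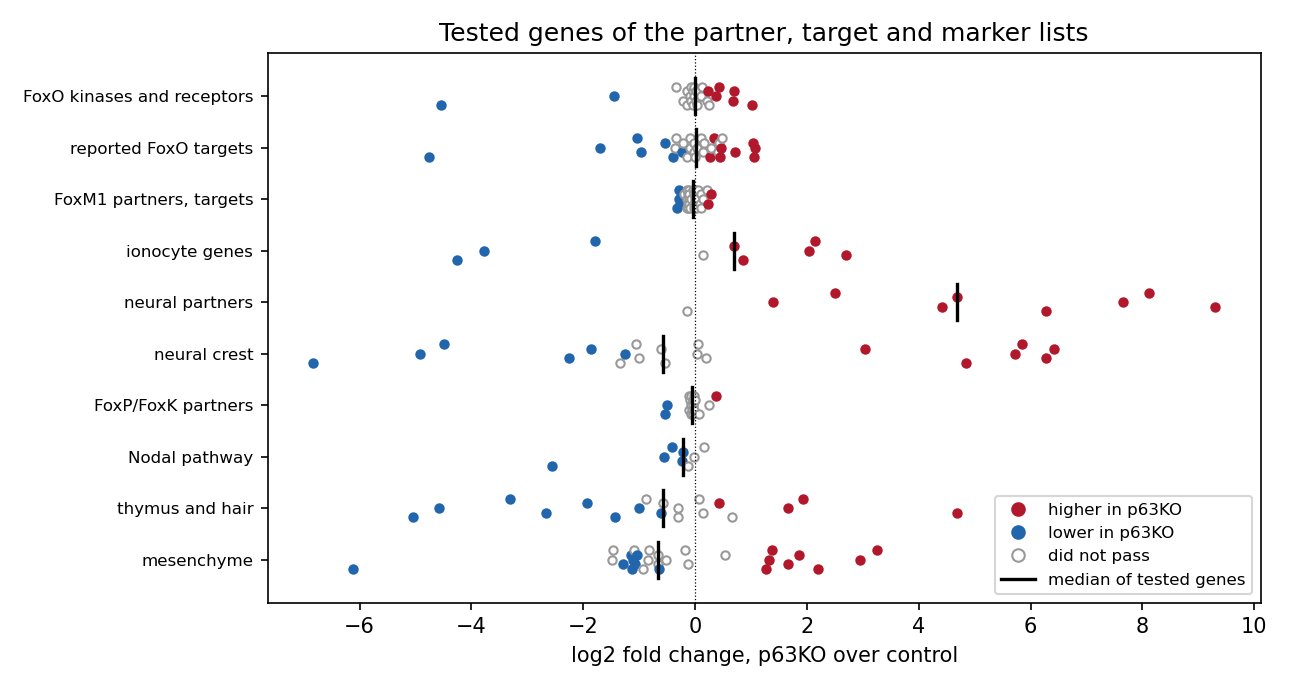
Log2 fold change, p63KO over control, of each tested gene in the lists set around the forkhead members; red points rose, blue points fell, open points did not pass, and the black bars are list medians. The neural list has its median at 4.68, the ionocyte list at 0.70 and the FoxM1 list at -0.04.

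The remaining members had few or no counts. Foxn1, the factor of thymic epithelium and hair whose loss gives the nude mouse, had 0, 1 and 2 counts in p63KO, against 14, 6 and 15 counts in controls. The ratio of p63KO to control, scaled for depth, was 0.105 (exact 95% interval 0.0208 to 0.335, counting error only), and Foxn1 missed the filter on low counts. Without that filter it was called lower. Of the thymus and hair genes set around it, 4 of 19 tested rose, 8 fell and 7 did not pass. Shares over all tested genes were 15.3% higher and 14.3% lower. The list had a median log2 fold change of -0.57. Wnt4, a Wnt ligand gene, averaged 22.8 ± 5.17 CPM in p63KO and 144.6 ± 11.2 CPM in controls (-2.66, edgeR adjusted p = 2.1e-06). Fgfr2, the most abundant of the list and the receptor for FGF7 and FGF10, averaged 354.1 ± 31.9 CPM in p63KO and 705.2 ± 59.7 CPM in controls (-0.99). Dll4 was the rise with the lowest p.

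Foxh1, the partner of SMAD2 and SMAD3 in Nodal signalling, had 3, 2 and 0 counts in p63KO and 2, 0 and 0 counts in controls (ratio 3.08, exact 95% interval 0.504 to 32.3). Of 8 tested Nodal pathway genes 5 fell (14.3% of all tested genes did), none rose and 3 did not pass. Their median log2 fold change was -0.22. Smad3 measured 166, 207 and 189 CPM in p63KO, against 278, 287 and 261 CPM in controls (-0.55, edgeR adjusted p = 0.00088). The falls came to 2 without p63KO replicate 1 or 2 and to 3 without p63KO replicate 3 or control replicate 1 or 2.

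Foxd4 had 1, 6 and 3 counts in p63KO, against 2, 0 and 0 counts in controls (ratio 6.15, exact 95% interval 1.31 to 57.7). That interval covers counting error only, the groups overlapped, and Foxd4 had too few counts to test. Foxp3, the factor of regulatory T cells, had 5, 6 and 2 counts in p63KO and 3, 3 and 4 counts in controls, and its exons overlap those of Ccdc22, which averaged 24.1 CPM in p63KO and 26.4 CPM in controls. Foxl2, the ovarian factor, had 1, 1 and 0 counts in p63KO and 0, 0 and 1 counts in controls. Foxr1 had 0, 0 and 0 counts in p63KO and 1, 0 and 3 counts in controls, and Foxr2 had 1, 0 and 2 counts in p63KO and 0, 1 and 0 counts in controls. No difference was detectable for Foxl2, Foxr1 and Foxr2 at this depth. Foxb2, Foxe3, Foxi2, Foxi3 and Foxs1 had no count in any library, where 3 counts would be 0.153 to 0.223 CPM. Foxe3 adjoins Foxd2 on chromosome 4, and it stayed at 0 in the p63KO libraries in which Foxd2 was higher.

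The best known foregut forkhead genes lie outside the set and are given for scale. Foxa2, an endoderm factor, measured 473, 440 and 442 CPM in p63KO, against 351, 298 and 269 CPM in controls (log2 fold change 0.56, edgeR adjusted p = 0.0018). Foxa1 measured 138, 121 and 127 CPM in p63KO and 123, 128 and 172 CPM in controls, and did not pass. Foxe1, a factor of the thyroid and of the oral and esophageal epithelium, measured 7.85, 9.21 and 12.3 CPM in p63KO, against 69.4, 50.5 and 50.1 CPM in controls (-2.54, adjusted p = 1e-05).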

How the data were processed

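RNA-seq counts came from 3 p63KO and 3 control libraries. The deposited table holds whole-number counts per gene symbol, with no normalization by the authors. The submitters' processing notes name bcl2fastq 1.8.4, TopHat2 2.1.0, DESeq2 and build mm9; no source used here gives the counter, the annotation or the strand setting, so overlapping and antisense genes cannot be told apart.

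From these counts, edgeR 4.0.16 in R 4.3.3 (filterByExpr, minimum count 10 and minimum total 15; TMM; quasi-likelihood test, group as the only term) tested 13849 of the 18572 genes with a count, with Benjamini-Hochberg adjustment over all of them. The SE is the log2 fold change divided by the square root of F, and 95% intervals use its t distribution. The test was first tried on simulated counts with known changes. Libraries within a group differed by more than sampling noise (chi-square per degree of freedom 7.53 to 15.3). Levels per kilobase use the longest coding transcript in GENCODE (GRCm38). Promoters are RefSeq windows on GRCm38.p6, present for 25 of 38 members; no mm9 coordinate was used.

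Members, partner and target lists and the rule for named genes were chosen with earlier results of these data known. Named with values per library were all called members and those with a mean of at least 10 CPM, and of each list the called gene with the lowest p in each direction and the most abundant; other named genes, the values for members outside this rule and the list counts with a library left out were added after the values were seen.

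Values of a few genes are not reported here, although list and member counts, medians and sums still hold them.

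Alternatives were DESeq2 1.42.0, limma-voom (limma 3.58.1), other scalings and filters, robust dispersions, a replicate block, a stricter threshold and each library left out.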

Additional observations from a re-analysis of the deposited data

How the results depend on the processing

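Over 370 values of single members under the alternatives, 328 kept their direction and side of the threshold, 14 no longer passed, 16 newly passed and 12 changed sign, all of members that passed in neither fit. Foxk2 (-0.01) became 0.017 with upper quartile and 0.029 with total count scaling, and Foxo6 (-0.02) 0.0078 and 0.020. With a library left out the log2 fold change ran from -0.068 to 0.11 for Foxk2, from -0.18 to 0.092 for Foxo6, from -0.087 to 0.0089 for Foxj2, from -0.21 to 0.0036 for Foxo3 and from -0.12 to 0.040 for Foxp4. The count of members higher in p63KO (4) was 2 when at least 1 CPM in 3 libraries was required, which left Foxd2 and Foxi1 untested, and 3 to 5 with a library left out. The count of members lower (4) was 1 at an adjusted p under 0.01 (Foxf2) and 2 to 6 with a library left out, the lowest without control replicate 1 (the cause was not tested). All genes called numbered 3150 to 4778 over the settings. Other scalings moved the median log2 fold change of all genes from -0.01 to at most 0.02, and the same members were called under each.

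With the replicate number as a block, 7 members were lower, since Foxm1, Foxo1 and Foxp2 also passed, 5 were higher, with Foxn4, and 4778 genes were called in all. Deviations of same-numbered libraries from their group means correlated at 0.17, 0.26 and 0.035 for replicates 1, 2 and 3. Pairs with unlike numbers ran from -0.23 to 0.056, so each p63KO library correlated most with the control of its own number. Control replicate 3 correlated more with p63KO replicate 1 (0.056) than with its own number. Whether same-numbered samples share more than a number was not tested, and the main fit took them as unpaired.

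Depth limited the low members, 8 of which had too few counts to test. Counting intervals cover counting error only, and embryo, strand and cell-type share were not analysed here.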
